A study of Mus musculus with 18 samples.

Results

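The 10 genes described here encode the core and accessory subunits of Polycomb repressive complex 2 (PRC2) in mouse lung epithelial cultures. They were chosen by name: Ezh1, Ezh2, Eed, Suz12, Rbbp4, Jarid2, Aebp2, Phf1, Mtf2 and Phf19, 10 of the 46603 genes in each deposited table, and all 10 were matched to exactly 1 gene each. PRC2 places methyl groups on lysine 27 of histone H3, a mark of silenced genes. The core is a catalytic subunit, either EZH2 or its paralog EZH1, together with EED, which binds the methylated histone tail and stimulates the enzyme, SUZ12, the scaffold, and the histone-binding protein RBBP4. The core joins either the Polycomb-like proteins PHF1, MTF2 and PHF19 or the pair JARID2 and AEBP2, which bring it to chromatin in different ways. Ezh2 is known as a gene of dividing cells and Ezh1 as one that quiescent cells keep expressing.

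The mice carried human EGFR with the T790M and L858R mutations, knocked into Col1a1 behind a stop cassette that Cre removes and driven by a CAG promoter. By the study's methods, organoids and dissociated tumour cells both grew in Matrigel with neonatal lung mesenchymal cells. Sorted from the trachea were club cells (NGFR negative) and basal cells (NGFR positive), and from the distal lung AT2 cells (Sca1 negative) and BASCs, the bronchioalveolar stem cells (Sca1 positive). Each population gave 1 culture with the control virus Ad-GFP and 1 with Ad-Cre, and hand-picked BASC organoids gave 1 alveolar and 1 bronchiolar Ad-Cre culture. Tumoroids, cultures of dissociated tumours, came from Ad-Cre organoids transplanted into the lungs of nude mice, which lack most T cells (AT2, n = 3; BASC mixed, n = 3; BASC bronchiolar, n = 1), and from an Ad-Cre tumour that formed without transplantation (autochthonous, n = 1). Mouse ages are not given in the sources used here, and every culture was 1 library.

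Organoids were grouped as tracheal (n = 4), BASC mixed/bronchiolar (n = 3) and alveolar (AT2 with each virus and BASC alveolar, n = 3). The summed level of 6 AT2 markers was 154.5 to 243.2 CPM (counts scaled to a common library size) in tracheal, 671.9 to 2488 in BASC mixed/bronchiolar and 42500 to 49890 in alveolar organoids, which set the alveolar class apart by its markers. Over the tracheal organoids, 4 basal markers summed to 3105 to 3945 CPM and 4 club markers to 10300 to 11640 CPM. Cultures of both tracheal sorts thus carried markers of both types, although the club marker Scgb1a1 averaged only 2.78 CPM. The AT2 tumoroids carry an NGFR negative sorting label beside an AT2 origin, and their AT2 markers were abundant. Cultures with Ad-GFP and Ad-Cre shared a sort, and tumoroid labels share numbers, so p-values measure the spread between cultures and not between independent animals. Organoids were sequenced on HiSeq and tumoroids on DNBSEQ, so that platform and transplantation cannot be told apart. Totals were 27772660 to 97191624 expected counts per organoid library and 15327265 to 23355938 per tumoroid library. The least covered member was Phf19, with 74 to 461 counts per library, and the other 9 members had between 388 and 11053. Levels below are CPM on 1 common scale over all 18 libraries unless TPM, a level per transcript length, is named. In bulk RNA, fewer cells of a type and less RNA per cell cannot be told apart.

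Before the levels, the start of the catalytic genes is shown with a motif of cell cycle genes, which stands there in Ezh2 and not in Ezh1. E2F factors, which switch genes on for DNA replication, bind forms of TTTCCCGC, TTTCGCGC, TTTGCCGC and TTTGGCGC. These 4 forms were searched on both strands of the RefSeq promoters of all 10 members (GRCm38.p6, windows of 300 bases around a start site). The Ezh2 promoter at chr6:47594981-47595280, minus strand, held 1 form, which is in capitals here and begins at position 4, counted with the start site as 1:
Ezh2: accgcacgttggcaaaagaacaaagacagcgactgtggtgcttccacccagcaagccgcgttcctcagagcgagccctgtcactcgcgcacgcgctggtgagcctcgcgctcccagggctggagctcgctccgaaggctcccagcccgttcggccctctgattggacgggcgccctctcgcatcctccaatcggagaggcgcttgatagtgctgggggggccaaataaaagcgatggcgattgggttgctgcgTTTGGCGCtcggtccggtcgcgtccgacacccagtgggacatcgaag
The Ezh1 promoter at chr11:101226414-101226713, minus strand, held none:
Ezh1: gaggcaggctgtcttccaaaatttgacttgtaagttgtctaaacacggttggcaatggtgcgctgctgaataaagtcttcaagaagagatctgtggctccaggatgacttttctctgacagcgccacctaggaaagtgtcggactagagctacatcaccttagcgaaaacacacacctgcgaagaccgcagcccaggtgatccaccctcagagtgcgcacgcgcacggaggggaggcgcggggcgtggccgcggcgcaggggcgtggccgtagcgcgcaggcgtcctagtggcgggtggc
The Phf19 promoter at chr2:34913927-34914226, minus strand, and the Suz12 promoter at chr11:79992856-79993155, plus strand, each held 1 copy of TTTCCCGC, for Phf19 on the opposite strand to the gene, so that the capitals read as its reverse complement:
Phf19: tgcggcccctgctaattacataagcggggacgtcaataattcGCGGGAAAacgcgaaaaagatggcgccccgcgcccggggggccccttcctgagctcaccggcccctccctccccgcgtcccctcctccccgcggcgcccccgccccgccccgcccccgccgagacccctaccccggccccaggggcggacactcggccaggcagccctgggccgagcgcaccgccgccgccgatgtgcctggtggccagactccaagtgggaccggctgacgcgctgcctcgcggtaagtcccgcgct
Suz12: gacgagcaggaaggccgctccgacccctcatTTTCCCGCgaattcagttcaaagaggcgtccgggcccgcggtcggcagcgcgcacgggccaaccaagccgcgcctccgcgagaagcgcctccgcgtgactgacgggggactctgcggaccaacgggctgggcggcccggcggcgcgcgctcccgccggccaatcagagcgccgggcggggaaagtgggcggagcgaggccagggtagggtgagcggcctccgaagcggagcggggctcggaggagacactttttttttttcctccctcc
Some E2F form stood in 744 of 32851 promoters (2.26%), in those of 3 of the 10 members (Ezh2, Phf19 and Suz12) and in those of 5 of 20 matched genes of the proliferation list. The CCAAT box, a frequent promoter element, was in 37.4% of all promoters, in those of 7 of the 10 members and in those of 15 of the 20 proliferation genes. Ezh2 held 3 copies, and the members without it were Ezh1, Phf1 and Phf19. The TTTGAA element of cell cycle genes was in 17.9% of all promoters and in those of 7 of the 20 proliferation genes. It was in 4 members (Eed, Suz12, Aebp2 and Mtf2) and in neither catalytic gene. The percentages are over single promoters, whereas a gene counted when any of its promoters matched. The 10 members had 14 promoters, so the counts of genes and the percentages are not on the same scale. A match describes letters and shows no binding, and its relation to the levels below was not tested.

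In TPM, which allows genes to be compared, the members differed widely in level. Rbbp4, which is also part of other chromatin complexes, was the most abundant, with a median of 120.9 TPM over the 18 libraries (77.12 to 144.5). Phf19 was the least abundant at a median of 2.37 TPM (0.91 to 7.69) and had the widest relative range, with its highest library 8.45 times its lowest. Eed (28.0 to 42.9 TPM) ranged least, at 1.53 times, followed by Mtf2, Rbbp4 and Phf1 at 1.86, 1.87 and 1.92 times. Suz12 ranged 3.10 times, Ezh2 3.82, Aebp2 5.34 and Ezh1 6.001 times. Both catalytic genes thus varied more than their core partners Eed, Suz12 and Rbbp4 over the 18 libraries.

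**Figure D1:**
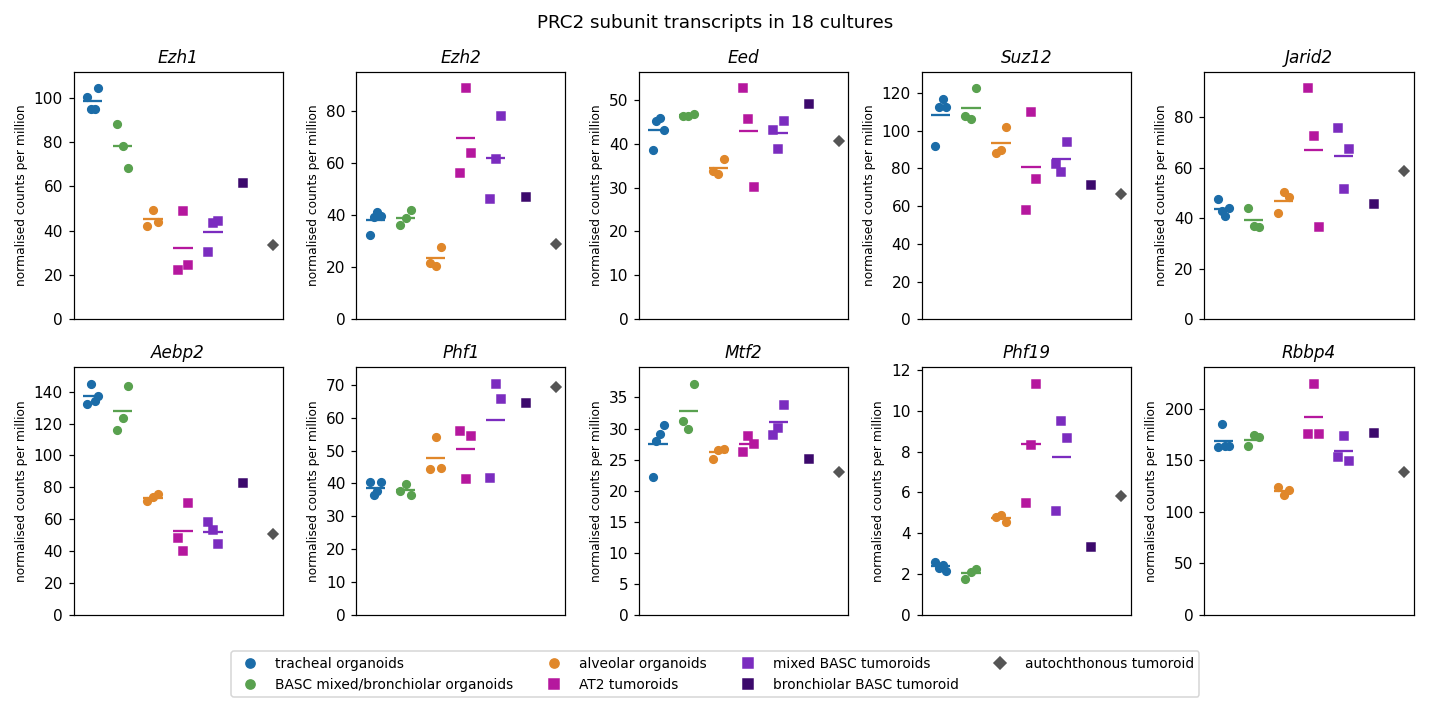
Each panel shows 1 PRC2 gene, with 1 point per library on a linear axis of normalised CPM that starts at 0, and bars at the mean of groups with several libraries. Ezh1 and Aebp2 step down from tracheal to alveolar organoids, Phf19 steps up, and Ezh2 is lowest in alveolar organoids and highest in the transplant tumoroids.

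The first comparison asks how the subunits differ with the lineage of the organoids. Alveolar organoids had lower levels of both catalytic genes than tracheal organoids and higher levels of Phf19. Ezh1 was at 100.3, 95.0, 94.9 and 104.4 CPM in the 4 tracheal organoids and at 42.1, 49.5 and 43.9 in the 3 alveolar ones. The groups did not overlap, as held for 67.6% of all genes in this comparison, and Ezh1 fell by 1.08 on the log2 scale (SE 0.10, adjusted p = 1.82e-05). Ezh2 was at 32.2, 39.4, 41.2 and 39.6 CPM in the tracheal organoids and at 21.8, 20.4 and 27.9 in the alveolar ones, again without overlap. It fell by 0.66 on the log2 scale, with an SE of 0.13 (adjusted p = 0.00185). In the other core subunits, Rbbp4 fell by 0.44 and Eed by 0.28 on the log2 scale (adjusted p = 0.000578 and 0.0122), while Suz12 was at -0.17 (adjusted p = 0.177; 0.0392 without the NGFR negative Ad-GFP culture). The call for Eed was lost without either AT2 culture, with an adjusted p of 0.0562 without the Ad-GFP and 0.0656 without the Ad-Cre culture.

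The accessory subunits moved apart. Aebp2, a zinc finger partner of JARID2, was at 132.1 to 145.1 CPM in tracheal organoids and at 71.2 to 75.6 in alveolar ones, and it changed by -0.85 on the log2 scale with an SE of 0.08 (adjusted p = 2.12e-05). Phf19, a Polycomb-like protein that binds methylated lysine 36 of histone H3, was at 2.14 to 2.57 CPM in tracheal organoids and at 4.56, 4.77 and 4.88 CPM in alveolar ones, and it was higher by 1.05 on the log2 scale with an SE of 0.15 (adjusted p = 0.000245). Phf1, its paralog, rose by 0.35 (adjusted p = 0.00518), whereas the third paralog Mtf2 was at -0.02 and Jarid2 at 0.14, both short of the threshold. Phf1 overlaps Cuta on the opposite strand and Mtf2 overlaps Tmed5, and whether the counting used strand is not given in the sources used here, so reads at those overlaps are uncertain. In all, 7 of 10 members were called, 2 higher and 5 lower, against 60.9% of 18754 genes tested (29.5% higher and 31.4% lower). The count of called members is therefore near the background, and the members' median log2 fold change of -0.22 stands beside -0.06 for all genes.

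BASC mixed/bronchiolar organoids stood close to tracheal organoids. No member was called between them by edgeR, where 1.45% of 18754 genes were, and 1 of 10 members, Ezh1, had an unadjusted p below 0.05. Of the 10 members 2, Ezh1 and Eed, did not overlap between the classes, beside 16.2% of all genes. Ezh1 was at 88.3, 78.4 and 68.1 CPM, below every tracheal value, with -0.34 on the log2 scale and an SE of 0.10 (adjusted p = 0.116). It passed the threshold by the DESeq2 Wald test (adjusted p = 0.0401), and in edgeR without the BASC mixed Ad-GFP culture (adjusted p = 0.0111). Ezh2 was at 36.2, 38.99 and 41.8 CPM, inside the tracheal range but for its highest value, and its log2 fold change was 0.03 (SE 0.13).

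Alveolar organoids differed from BASC mixed/bronchiolar organoids much as they did from tracheal ones, in a comparison that shares the alveolar libraries. Here 8 of 10 members were called, 3 higher and 5 lower, against 53.1% of all genes (25.5% higher and 27.6% lower). Phf19 was higher by 1.27 (SE 0.16), and Ezh1, Aebp2 and Ezh2 were lower by log2 fold changes of -0.74, -0.74 and -0.69. Jarid2 was higher by 0.31 (adjusted p = 0.0323) but overlapped between the classes. Its call was lost without the AT2 Ad-Cre (adjusted p = 0.108), BASC mixed Ad-Cre (0.107), BASC alveolar (0.0981) or BASC bronchiolar culture (0.101), and without the filter on low counts (0.0785). Within the BASC lineage the values split the same way: the BASC alveolar culture had Ezh2 at 27.9 and Phf19 at 4.56 CPM and the BASC bronchiolar culture, also picked from BASC colonies, had 41.8 and 2.24. With 1 library each, this has no replicate check.

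Proliferation and support-cell markers moved with these lineage differences, and their part in them was not tested. Of 24 proliferation genes, 18 fell and 1 rose in alveolar against tracheal organoids, with a median log2 fold change of -0.77. The 1 that rose was E2f1, with a log2 fold change of 1.29 (edgeR adjusted p = 1.05e-05) and means of 28.0 against 11.9 CPM. Mki67, a marker of dividing cells, was at 80.3 to 109.9 CPM in tracheal and 46.3 to 62.0 in alveolar organoids. All 6 fibroblast markers were higher in alveolar organoids, with a summed level of 4160 to 7529 CPM against 2028 to 2201. Endothelial markers summed to at most 0.927 and immune markers to at most 5.43 CPM in any organoid class, with Cdh5, Tie1, Ptprc and Cd3e at 0 in some libraries. At these low levels, the 1 endothelial marker tested, Pecam1 (log2 fold change 0.89), was called higher in alveolar than in tracheal organoids. So were all 3 immune markers tested, Ptprc (4.21), Cd79a (3.11) and Csf1r (1.18).

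**Figure D2:**
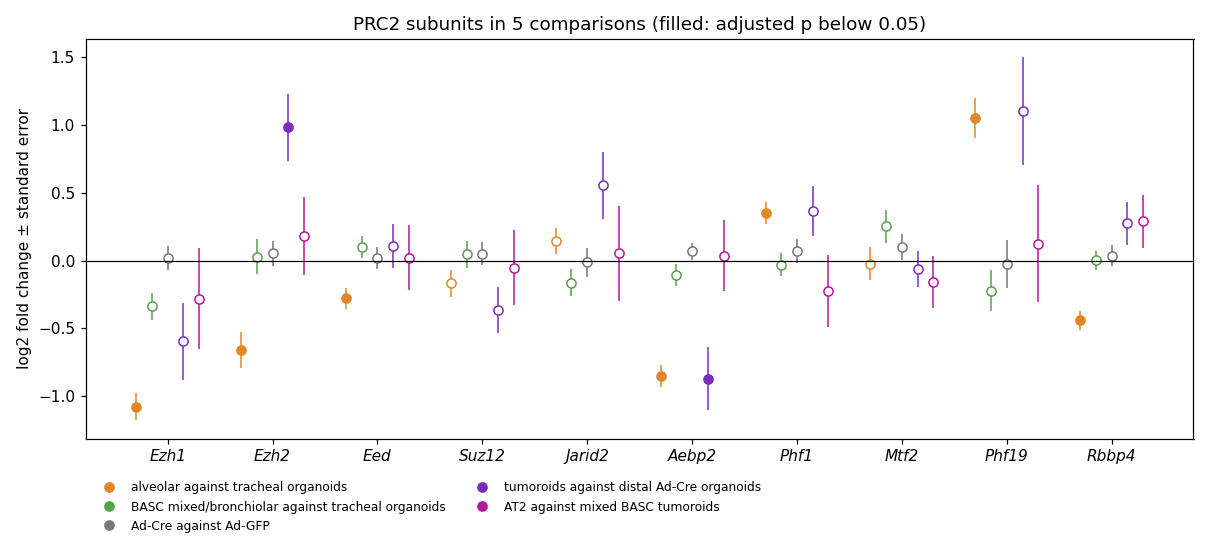
Points are edgeR log2 fold changes of the 10 PRC2 genes with standard errors in 5 comparisons, filled where the adjusted p was below 0.05. Filled points stand only in the alveolar against tracheal and the tumoroid against distal organoid comparisons, and the values for Ad-Cre against Ad-GFP lie between -0.02 and 0.10.

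Next, Ad-Cre was compared with Ad-GFP in the 4 matched populations, with population as a block, to ask whether switching on the transgene moved the complex before transplantation. Ezh2 went from 32.2 to 39.4 CPM in NGFR negative, from 41.2 to 39.6 in NGFR positive, from 21.8 to 20.4 in AT2 and from 36.2 to 38.99 in BASC mixed organoids, up in 2 pairs and down in 2. Its log2 fold change was 0.05 (SE 0.09). Over the members the log2 fold changes ran from -0.02 (Phf19, SE 0.18) to 0.10 (Mtf2, SE 0.09), with a median of 0.04. None of the 10 was called, no gene of 17749 was (0%), and none of the 10 had an unadjusted p below 0.05. DESeq2 called 5 genes and none of the members, and 350 genes had an unadjusted p below 0.05 in edgeR. By the interaction test of virus with region (distal or tracheal), no member was called (adjusted p of at least 0.998), and neither was any of 17749 genes (0%). The largest difference among the members was 0.32 for Phf19 (unadjusted p = 0.431 in that test). With so few pairs per region, the test could not show that the virus effect was equal.

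Transplantation and tumour growth were addressed by comparing the 7 transplant tumoroids with the 4 distal Ad-Cre organoids. Ezh2 was higher in the transplant tumoroids and Aebp2 was lower. Ezh2 was at 20.4 (AT2), 38.99 (BASC mixed), 27.9 (BASC alveolar) and 41.8 CPM (BASC bronchiolar) in the organoids. It was at 56.1, 88.8 and 64.0 CPM in the AT2 tumoroids, at 46.3, 61.5 and 78.2 in the BASC mixed tumoroids and at 46.9 in the BASC bronchiolar tumoroid. The lowest tumoroid thus lay above the highest organoid, and 15.6% of all genes separated the groups in this way. The log2 fold change of Ezh2 was 0.98 (SE 0.25, adjusted p = 0.0182). It stayed positive when each library was left out (0.82 to 1.12), and passed the threshold in all but the fit without the BASC alveolar culture (adjusted p = 0.0589). Against the AT2 and BASC alveolar Ad-Cre organoids alone, the 6 AT2 and BASC mixed tumoroids had a log2 fold change of 1.44 (adjusted p = 0.0216).

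Aebp2 was at 74.0 to 143.9 CPM in the organoids and at 39.8 to 82.5 in the tumoroids, where the bronchiolar tumoroid was highest. It fell by 0.87 on the log2 scale, with an SE of 0.23 (adjusted p = 0.0243). The groups overlapped, and the call was lost without the BASC mixed culture (adjusted p = 0.0746), the BASC bronchiolar culture (0.0917) or the first AT2 tumoroid (0.0501), and when only alveolar organoids served as controls (-0.52, 0.150). Aebp2 was low in alveolar organoids already, at 74.0 and 75.6 CPM in the AT2 and BASC alveolar Ad-Cre cultures.

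Phf19 had the largest fold change among the members in this comparison, but with a wide error. It was at 4.88, 2.10, 4.56 and 2.24 CPM in the organoids and at 5.48, 8.34, 11.3, 5.10, 9.52 and 8.65 in the 6 AT2 and BASC mixed tumoroids, with 3.31 in the bronchiolar one. The log2 fold change was 1.10 (SE 0.40, adjusted p = 0.0746). Without the bronchiolar tumoroid, the only one inside the organoid range, it was 1.25 (adjusted p = 0.0325), and DESeq2 gave an adjusted p of 0.0180. Jarid2 was at 0.55 (adjusted p = 0.137), Suz12 at -0.37 (0.148), Ezh1 at -0.60 (0.162), Phf1 at 0.36 (0.188) and Rbbp4 at 0.28 (0.247), while Eed and Mtf2 were within 0.11 of no change. Jarid2 passed with 1 tumoroid per label number (0.79, adjusted p = 0.0341). In all, 2 of 10 members were called, 1 in each direction, against 19.6% of 16139 genes (10.8% higher and 8.77% lower), and their median log2 fold change was 0.19 beside -0.00164 for all genes. The count of called members is thus near the background.

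Markers moved here too, and their part in the result was not tested. All 24 proliferation genes were higher in the tumoroids, with a median log2 fold change of 1.54, and Mki67 rose by 1.35 (SE 0.21, adjusted p = 0.00220) from 46.3 to 77.9 CPM in the organoids to 101.1 to 191.6. The fibroblast markers summed to 3132 to 7323 CPM in the organoids and to between 542.9 and 10490 in the tumoroids, where 1 of 6 was called lower. Of 3 ciliated markers tested 2 were lower (median log2 fold change -2.35), with a sum of 16.2 to 273.3 CPM in the organoids and 6.20 to 226.7 in the tumoroids. The endothelial marker tested, Pecam1, was higher (2.61), with a sum over 4 markers of 0.651 to 0.784 against 0.537 to 6.44 CPM and Cdh5, Kdr and Tie1 at 0 in some tumoroids. Of 3 immune markers tested 1, Cd79a, was higher (2.35), with a sum over 4 of 1.83 to 5.43 against 4.34 to 14.6 CPM and Ptprc and Cd3e at 0 in some tumoroids. No AT2, club or basal marker was called.

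To set the catalytic genes against each other, the balance of their transcripts was computed per length as the share of Ezh2 in the TPM of both. It was 39.7%, 48.7%, 49.8% and 48.5% in tracheal, 50.02%, 53.8% and 60.5% in BASC mixed/bronchiolar and 54.2%, 47.4% and 60.5% in alveolar organoids. It was 84.9%, 80.9% and 82.0% in the AT2 tumoroids, 73.6%, 74.4% and 80.1% in the BASC mixed tumoroids, 63.9% in the bronchiolar and 63.3% in the autochthonous tumoroid. All 8 tumoroids thus lay above all 10 organoids. The 7 transplant tumoroids averaged 77.1% ± 7.10 (SD, n = 7) and the 4 distal Ad-Cre organoids 55.6% ± 6.29 (SD, n = 4), a difference of 21.5 percentage points. A two-sided exact permutation test gave p = 0.00303, the smallest that 330 regroupings allow, and 0.0545 after adjustment over 18 share tests. Although both genes were lower in alveolar than in tracheal organoids, the share of Ezh2 was 7.39 points higher, a difference that did not pass the test (exact permutation p = 0.171, adjusted 0.257). BASC mixed/bronchiolar organoids were 8.13 points above tracheal ones (exact permutation p = 0.0286, the smallest that 35 regroupings allow, adjusted 0.1).

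**Figure D3:**
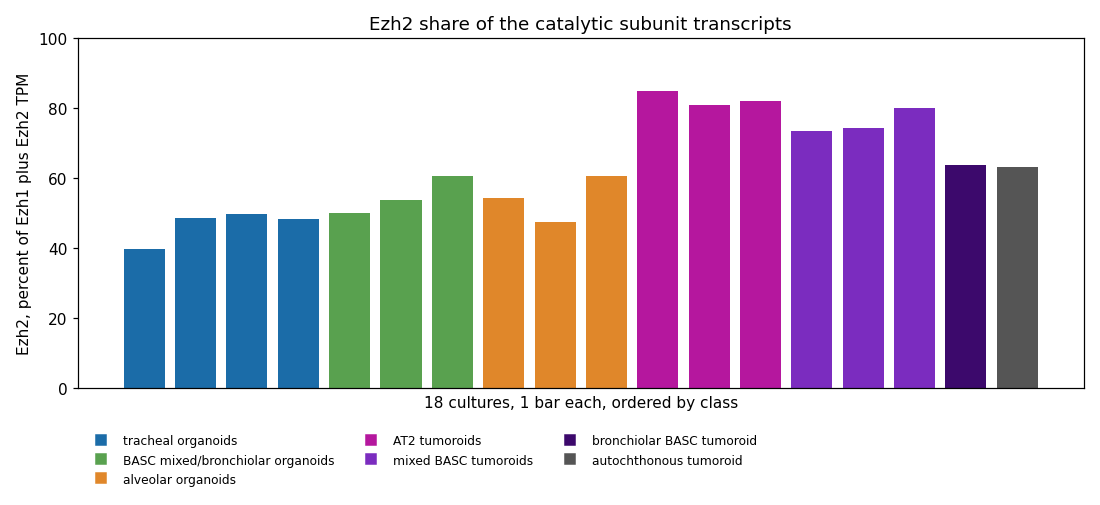
Bars give the percent of Ezh2 in the summed TPM of Ezh1 and Ezh2 in each of the 18 libraries, coloured by class, on an axis from 0 to 100. Organoids lie between 39.7% and 60.5% and tumoroids between 63.3% and 84.9%.

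Set against its partners per length, Ezh2 had 0.767 to 1.28 times the TPM of Eed and 0.561 to 1.03 times that of Suz12 in organoids. In the transplant tumoroids these ratios were 1.08 to 2.33 and 1.31 to 2.595. In the autochthonous tumoroid they were 0.767 and 0.985, inside the organoid ranges. Among the Polycomb-like genes, Phf19 made up 2.07% to 3.43% of the TPM of Phf1, Mtf2 and Phf19 in tracheal organoids and 4.601% to 6.21% in alveolar ones (exact permutation p = 0.0286, the smallest possible, adjusted 0.1). It made up 3.98% to 11.5% in the transplant tumoroids against 2.23% to 4.68% in distal Ad-Cre organoids (exact permutation p = 0.0333, adjusted 0.1). Jarid2 and Aebp2 together made up 68.2% ± 1.62 (SD, n = 4) of the accessory TPM in tracheal and 51.0% ± 1.78 (SD, n = 3) in alveolar organoids (exact permutation p = 0.0286, adjusted 0.1), and 44.1% ± 5.72 (SD, n = 7) in the transplant tumoroids against 57.2% ± 8.12 (SD, n = 4) in distal Ad-Cre organoids (exact permutation p = 0.0121, adjusted 0.1). None of these 18 tests passed after adjustment, although without the first BASC mixed tumoroid those of the Ezh2 share and of the share of Jarid2 and Aebp2 between tumoroids and organoids did (adjusted p = 0.0429 in each, exact permutation test). Where 3 cultures stood against 3, p could not go below 0.1.

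The relation of Ezh2 to proliferation is described over cultures that share sorts, mice and a platform, so no p is given. In log2 CPM, Ezh2 followed Mki67 with r = 0.80 (rho 0.67) over the 10 organoids and with r = 0.80 (rho 0.62) over the 8 tumoroids. The organoid relation rested on the alveolar cultures. Over the 7 organoids that were not alveolar r was 0.02, and without the 2 organoids farthest from the median of Mki67 it was 0.46. Over 5 of those 7, again without the 2 farthest, it was 0.92, so the value in these few cultures turned on single libraries. In the tumoroids, the autochthonous and bronchiolar cultures had the lowest Mki67, and without them r was 0.43 over the 6 AT2 and BASC mixed tumoroids and -0.60 over 4 of these. With the mean log2 CPM of the 24 proliferation genes, which include Mki67, in place of Mki67, r was 0.85 in organoids and 0.76 in tumoroids. Over the 7 organoids that were not alveolar it was 0.05, and over the 6 AT2 and BASC mixed tumoroids 0.32.

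The contrast with the other members differed between organoids and tumoroids. In the organoids Ezh1 had r = 0.88 with Mki67 over all 10 and 0.76 over the 7 that were not alveolar, but -0.35 over 5 of these without the 2 farthest, and with the proliferation genes it had r = 0.86 over all 10, close to that of Ezh2. In the tumoroids r was -0.28 for Ezh1. Phf19 changed sign, from r = -0.81 over the organoids to 0.77 over the tumoroids. It was at 0.77 over the 6 AT2 and BASC mixed tumoroids, but at 0.27 over 4 of these without the 2 farthest. In the organoids that were not alveolar its r was -0.14. Rbbp4, Aebp2 and Eed had r between 0.77 and 0.79 in the organoids and 0.48, -0.30 and -0.30 in the tumoroids. In the 7 organoids that were not alveolar these members had r of -0.05, -0.11 and 0.03. Against the mean of the 6 fibroblast markers, r in the organoids was -0.90 for Ezh1, -0.81 for Aebp2 and -0.77 for Ezh2, and 0.79 for Phf19. Over the 7 organoids that were not alveolar it was -0.82, 0.04, 0.44 and -0.08 in the same order. In the tumoroids it was -0.30, 0.67, -0.40 and 0.21.

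**Figure D4:**
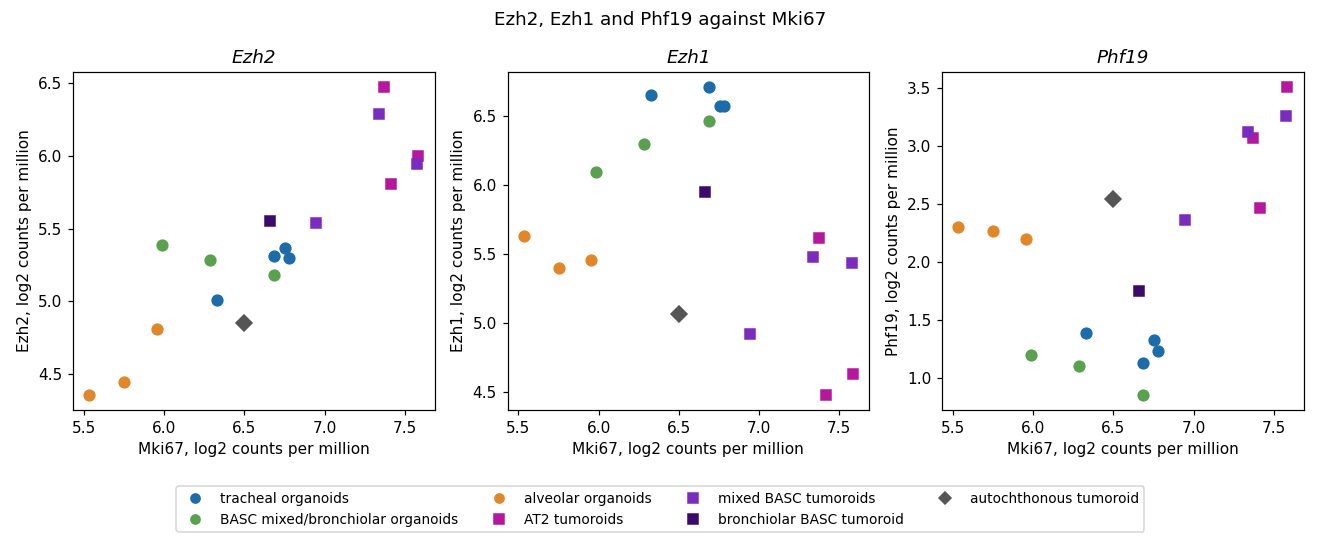
Ezh2, Ezh1 and Phf19 are plotted against Mki67, both in log2 CPM, with 1 point per library. In the organoids the alveolar cultures lie low on Mki67 and Ezh2 and the other 7 show no slope in Ezh2 (r = 0.02). Phf19 runs down over the organoids (r = -0.81, and -0.14 over the 7 that were not alveolar) and up over the tumoroids (r = 0.77).

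Members also tracked each other differently. In organoids, Ezh2 had r = 0.96 with Eed and 0.89 with Suz12, its core partners, and in tumoroids 0.00 and 0.67. Ezh1 and Ezh2 had r = 0.80 in organoids and 0.19 in tumoroids. The organoid values include the alveolar cultures, which were lowest in both catalytic genes, and r between members was not computed without them. In the BASC mixed Ad-GFP, BASC mixed Ad-Cre and BASC bronchiolar organoids, Ezh1 was at 88.3, 78.4 and 68.1 CPM. Ezh2 ran the other way there, at 36.2, 38.99 and 41.8 CPM. Among 10272 genes, the 5 most like Ezh2 by the smaller of the organoid and tumoroid r were Gins4, part of the replicative helicase, Rfc3, part of the clamp loader, Blm, the Bloom helicase, Cdca7l and Hat1, a histone acetyltransferase, each with r of at least 0.901 in both sets. Among those most like Ezh1 were Tbcc, Mmaa, Tmem39b and Traf3ip2, each with r of at least 0.928. All these genes were picked for their high r over few libraries. Their r was not computed without the alveolar organoids, on which the relation of Ezh2 to Mki67 rested.

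By origin, no member passed the test between AT2 and BASC mixed tumoroids. Ezh2 averaged 69.6 ± 17.1 (SD, n = 3) and 62.0 ± 15.9 CPM (SD, n = 3), a log2 difference of 0.18 (SE 0.29). Over the members the log2 fold changes ran from -0.28 (Ezh1, SE 0.37) to 0.29 (Rbbp4, SE 0.19), so differences of this size were not detectable. None of the 10 members and none of 15470 genes (0%) was called by edgeR, no member had an unadjusted p below 0.05, 144 genes did, and DESeq2 called 7 genes and no member. The share of Ezh2 in both catalytic transcripts was 82.6% ± 2.04 (SD, n = 3) and 76.0% ± 3.57 (SD, n = 3), without overlap (exact permutation p = 0.1, the smallest possible, adjusted 0.18).

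The single tumoroids stood apart from these 6 in several members, which has no replicate check. The bronchiolar tumoroid had more Ezh1 (61.7 CPM) and Aebp2 (82.5 CPM) than any of the 6, whose highest values were 49.1 and 70.1, and less Phf19 and Mtf2. Its Ezh2, at 46.9 CPM, lay at the lower end of their range of 46.3 to 88.8. The autochthonous tumoroid had Ezh2 at 28.7 CPM, below all 7 transplant tumoroids and inside the organoid range, with Mki67 at 90.5 CPM, below all 7 too. It also had less Rbbp4 (138.9 CPM) and Mtf2 (23.0 CPM) than any of the 6, and its Phf19, at 5.80 CPM, lay within their range.

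Other Polycomb genes are given by counts from lists that hold no member. Between tumoroids and distal Ad-Cre organoids, 5 of 21 PRC1 genes were higher and 3 lower. Of 7 further PRC2 or opposing genes 1 was higher and 3 lower, and of 4 PR-DUB genes 1 was higher and 1 lower. Together 7 of 32 were higher and 7 lower, beside 10.8% and 8.77% of all genes tested. The genes with the largest changes included Cbx2 (log2 fold change 1.43, adjusted p = 0.00267) and Cbx8 (1.37, 0.00912), chromodomain subunits of PRC1 that read the mark of PRC2, and Epop, a PRC2 partner (1.11, 0.0166). Lower were Lcor (-1.20, 0.00653) and Lcorl (-0.74, 0.0167), which encode the PALI proteins of PRC2, Asxl2 (-1.04, 0.00531) of PR-DUB, which removes the PRC1 mark, and Phc3 (-0.89, 0.00219) of PRC1. The call for Epop was lost without the BASC mixed (adjusted p = 0.0530) or BASC bronchiolar organoid (0.0563), and that for Lcorl without the BASC bronchiolar organoid (0.0552) and with 1 tumoroid per label number (0.0712). When 6 tumoroids were set against alveolar Ad-Cre organoids alone, Cbx8, Epop, Lcor, Lcorl and Asxl2 did not pass (adjusted p = 0.0936, 0.164, 0.0643, 0.127 and 0.0901). Cbx2 went from 5.76 to 12.4 CPM in the organoids to 17.0 to 27.5 in the tumoroids, without overlap.

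In alveolar against tracheal organoids, 4 of 21 PRC1 genes were higher and 7 lower. Of 7 further PRC2 or opposing genes 2 were higher and 3 lower, and 2 of 4 PR-DUB genes moved each way. Together 8 of 32 were higher and 12 lower, beside 29.5% and 31.4% of all genes, so the count was near the background. The largest were Asxl3 (3.80), Bmi1 (1.05), Cbx6 (0.78) and Epop (0.60) among those higher, and Cbx2 (-1.06), Rbbp7 (-0.99), Uty (-0.88, on the Y chromosome) and Phc1 (-0.62) among those lower. The call for Epop was lost in 5 of 7 fits that left out 1 library, all but those without the NGFR negative Ad-Cre or the AT2 Ad-GFP culture (adjusted p up to 0.0850). Rbbp7, the paralog of Rbbp4, was at 246.0 to 294.8 CPM in tracheal and 114.6 to 141.7 in alveolar organoids. Against BASC mixed/bronchiolar organoids, 8 of the 32 genes of these lists were higher and 9 lower in alveolar organoids, among them Pcgf6 at -0.78. Of all genes 25.5% were higher and 27.6% lower. None was called by edgeR or DESeq2 between BASC mixed/bronchiolar and tracheal organoids, where 5 had an unadjusted p below 0.05 in edgeR. None was called with virus or between tumoroid origins either, where 0 had such a p. Of all genes, edgeR called 1.45% between BASC mixed/bronchiolar and tracheal organoids, and 0% with virus and between tumoroid origins.

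Hox genes, classical targets of Polycomb silencing, were mostly low. Of 39, 19 passed the filter in organoids, and 6 were higher and 7 lower in alveolar than in tracheal organoids. Of all genes 29.5% were higher and 31.4% lower there. Hoxb9 (3.50), Hoxb8 (3.29), Hoxd8 (3.08) and Hoxb7 (1.97) had the largest log2 rises. Their levels were low, with means of 0.413 to 0.532 CPM in tracheal and 1.60 to 5.83 in alveolar organoids. Hoxc4 and Hoxc5 were at 0.703 to 7.03 and 0.169 to 1.47 CPM in tracheal organoids and at or near 0 in most other libraries, and Hoxb2 (-1.92) was also lower. Between BASC mixed/bronchiolar and tracheal organoids, edgeR called 1.45% of all genes and DESeq2 called 1350 genes in all. Hoxc4 and Hoxc5 were also called lower in BASC mixed/bronchiolar than in tracheal organoids, where DESeq2 called 9 Hox genes. Both of these calls were lost in 5 of 7 fits that left out 1 library (all but those without the NGFR negative Ad-Cre or the BASC mixed Ad-GFP culture, adjusted p up to 0.145 for Hoxc4 and 0.134 for Hoxc5), with virus as a covariate (0.0776 and 0.0698) and with only the 2 classes (0.0939 and 0.0791). In addition, 10 Hox genes were higher and 1 lower in alveolar than in BASC mixed/bronchiolar organoids, with Hoxb6 (2.77) and Hoxb5 (2.53) among the largest. Of all genes 25.5% were higher and 27.6% lower in that comparison. None of 16 tested was called between tumoroids and organoids by edgeR or DESeq2, and 1 had an unadjusted p below 0.05 in edgeR. Of all genes, edgeR called 19.6% there.

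Cdkn2a and Cdkn2b, INK4 genes at a locus that PRC2 is known to silence, fall outside the rule for named genes and were chosen after their values were seen. Cdkn2a was at 45.1 to 55.1 CPM in the distal Ad-Cre organoids and at 60.0 to 329.7 in the 7 transplant tumoroids, higher by 2.06 on the log2 scale with an SE of 0.40 (adjusted p = 0.00621). Cdkn2b was at -0.42 (adjusted p = 0.204). Both genes were higher in alveolar than in tracheal organoids.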

How the data were processed

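RNA of 18 mouse lung cultures was sequenced. Per the submitters' processing notes, reads were trimmed with Trimmomatic 0.39 and aligned with STAR 2.6.1d, and RSEM 1.3.2 estimated levels against GRCm38. The authors deposited per gene an expected count, an estimated number of reads that need not be whole, and TPM, scaled by transcript length and library. Of 46603 gene IDs, 46005 matched a symbol in GENCODE vM21. The members and gene lists were chosen with earlier results of these data known.

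Expected counts were rounded, filtered with filterByExpr, normalised by TMM and tested with the quasi-likelihood test of edgeR 4.0.16 (R 4.3.3), with Benjamini-Hochberg adjustment over all genes tested and a threshold of 0.05. The 10 organoids shared 1 fit over the 3 lineage classes. The virus comparison used population as a block, because each sorted population was divided between the viruses according to the study's methods. The other comparisons used only the samples they name. DESeq2 1.42.0 was an alternative, as were other size factors, no filter, other sample sets and leaving out each library. CPM were computed on 1 TMM scale over the 18 libraries, with a prior count of 2 for log2 values. Shares came from TPM and were tested by exact permutation over cultures with scipy 1.17.1, paired within population for the virus. The code was tested on simulated counts. Named besides the members were Mki67, up to 4 other Polycomb and up to 4 Hox genes with the largest called change in each direction, and the 5 genes most like Ezh2 and Ezh1 among those with a mean log2 CPM of at least 3. Reads of the human EGFR transgene were not used here. Some genes that meet this rule are not reported here.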

Additional observations from a re-analysis of the deposited data

Results flagged for a closer look

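Among 42 sets of values, each 1 gene or share in a group of 4 or 7 libraries, 3 held a library whose gap to the nearest other was large against the range by Dixon's criterion, which chance passes in about 1 in 20 groups. Rbbp4 was at 185.9 CPM in the tracheal NGFR negative Ad-Cre organoid, where the other tracheal organoids had 163.2 to 164.5. The share of Ezh2 in the TPM of both catalytic genes was 39.65% in the tracheal NGFR negative Ad-GFP organoid, against 48.45% to 49.80% in the others. Rbbp4 was at 224.7 CPM in the second AT2 tumoroid, against 149.6 to 176.5 in the other transplant tumoroids.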

How the results depend on the processing

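Each comparison was recomputed under the alternatives. The number of called members between BASC mixed/bronchiolar and tracheal organoids became 1 (Ezh1) by DESeq2, where 1350 genes were called in all against 272, 604 with the Ad-Cre cultures alone, 120 with virus as a covariate and 61 with only the 2 classes. With 6 tumoroids against alveolar Ad-Cre organoids, 1 member and 1538 genes were called against 2 and 3167. Leaving out 1 library gave 0 to 1 members and 1 (without the tracheal NGFR positive Ad-GFP) to 3929 genes (without the BASC mixed Ad-GFP culture) in the former and 1 to 3 members and 1973 (without the BASC bronchiolar organoid) to 3716 genes (without the bronchiolar tumoroid) in the latter.

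Members with small log2 fold changes turned sign. Mtf2 in alveolar against tracheal organoids was at 0.0221 with DESeq2 size factors and 0.0203 by DESeq2, and Rbbp4 in BASC mixed/bronchiolar against tracheal organoids at -0.00337 with virus as a covariate and -0.0246 in Ad-Cre cultures alone. For virus, Jarid2 was at 0.000795 without the filter. Without the replicate block, which pairs the cultures of a population, Ezh1 was at -0.00171 and no call changed. In distal populations alone Eed was at -0.0271, Ezh2 at -0.00157, Phf19 at 0.13, Rbbp4 at -0.013 and Suz12 at -0.00636, and in tracheal ones alone Mki67 at 0.18 and Phf1 at -0.0297. Mtf2 was at 0.13 in 6 tumoroids against alveolar Ad-Cre organoids. With each library left out, the values ran from -0.12 to 0.0299 for Mtf2 in alveolar against tracheal organoids, in BASC mixed/bronchiolar against tracheal organoids from -0.0469 to 0.0714 for Ezh2, -0.0581 to 0.0149 for Phf1, -0.0177 to 0.0522 for Rbbp4 and -0.0283 to 0.0881 for Suz12, for virus from -0.0497 to 0.0571 for Eed, -0.034 to 0.0934 for Ezh1, -0.0232 to 0.12 for Ezh2, -0.0918 to 0.0737 for Jarid2, -0.24 to 0.05004 for Mki67, -0.11 to 0.0382 for Phf19, -0.0138 to 0.0949 for Rbbp4 and -0.0261 to 0.093 for Suz12, in tumoroids against organoids from -0.11 to 0.0412 for Mtf2, and by tumoroid origin from -0.24 to 0.19 for Aebp2, -0.13 to 0.21 for Eed, -0.0472 to 0.37 for Ezh2, -0.22 to 0.34 for Jarid2, -0.16 to 0.37 for Phf19 and -0.35 to 0.15 for Suz12.

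The Ezh2 share in alveolar against BASC mixed/bronchiolar organoids was 0.596 points from CPM, and -3.99 to 2.58 with a library left out. For virus it ran from -1.45 to 3.83. In alveolar against tracheal organoids it ran from 4.14 (without the BASC alveolar culture) to 10.7 points (without AT2 Ad-Cre), and in BASC mixed/bronchiolar against tracheal ones from 5.28 (without BASC bronchiolar) to 10.5 (without BASC mixed Ad-GFP). In tumoroids against organoids it ran from 18.8 to 23.7, and that of Jarid2 and Aebp2 from -15.9 to -10.2. The r of Ezh2 with Mki67 fell to 0.463 in organoids without the 2 farthest libraries and 0.0196 in those not alveolar, and to 0.428 in tumoroids both without the 2 farthest and in the 6 AT2 and BASC mixed ones. The Ad-Cre cultures alone and the sets of 7 organoids and 6 tumoroids for r were chosen after seeing the data. The causes were not tested. Phf19 had the fewest counts of the members, 74 in its lowest library.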
